A study of Homo sapiens
Rattus norvegicus and Homo sapiens with 10 samples.

Results

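The 39 human HOX cluster genes were the genes whose symbol in the deposited table was HOX, a cluster letter from A to D and a number, 39 of the 62754 genes listed. The antisense and other noncoding genes of the clusters carry other symbols and were not members. In GENCODE 29, on the GRCh38 build, the members formed 4 clusters. HOXA held 11 members on the minus strand of chromosome 7 and HOXB held 10 on chromosome 17 (48528526 to 48729178, minus strand). HOXC held 9 on chromosome 12 (53938765 to 54056030, plus strand) and HOXD held 9 on chromosome 2 (176092891 to 176190907, plus strand). The members were followed through 10 RNA-seq libraries, which were 3 primary tumours, 3 recurrent tumours, 3 tumour-free controls and 1 cell culture.

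All tumours were U251N, an established glioblastoma line of human origin, injected into the brains of adult female athymic RNU/RNU rats, animals that lack T cells and so cannot reject the graft as a normal host would. The primary tumours were not ablated. The recurrent tumours regrew following LITT (laser interstitial thermal therapy), heating of the tumour by a laser probe under diffusion-weighted MRI. The controls came from rats without a tumour. They share 1 treatment label, and the series' design text names control replicate 1 as the failed graft and control replicates 2 and 3 as procedural. The culture was the same line grown in vitro without treatment and is a single library. The line stands for 1 patient's tumour after long culture, the host has no T-cell response, and replicate numbers are names that pair no samples. No label states that every library came from a different animal, so p-values measure the spread between these libraries, which could be partly technical.

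HOX genes encode homeodomain transcription factors that give cells their position along the head-to-tail axis of the embryo. Within each cluster the genes lie in numerical order, and low-numbered members are switched on earlier and nearer the head than high-numbered ones, a rule called collinearity. Members with the same number in different clusters are paralogs that arose when an ancestral cluster was duplicated. The forebrain forms without HOX expression, while the hindbrain and spinal cord use it, and HOX activity has been described in many glioblastomas. Polycomb proteins hold silent HOX genes off, Trithorax proteins keep active ones on, retinoic acid induces the low-numbered members, and the TALE proteins PBX, MEIS and PKNOX bind DNA beside HOX proteins.

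The homeodomain contacts DNA mainly through its last helix. The coding bases of that helix are shown because they display how alike the members are, which decides whether a read can be assigned to the right gene. Each stretch is 51 bases from a GENCODE 29 transcript, 5′ to 3′, with the 23 positions that are identical in all 39 members in capitals. The members shown are HOXB7, HOXC10 and HOXD10, each with the highest level per exon length in its cluster, and HOXA11, the member with the largest ratio of tumours to culture among those compared.
HOXB7: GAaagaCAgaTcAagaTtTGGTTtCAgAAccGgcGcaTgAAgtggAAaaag
HOXC10: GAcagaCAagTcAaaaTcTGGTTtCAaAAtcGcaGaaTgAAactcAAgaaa
HOXD10: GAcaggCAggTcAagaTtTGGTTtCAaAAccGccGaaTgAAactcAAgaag
HOXA11: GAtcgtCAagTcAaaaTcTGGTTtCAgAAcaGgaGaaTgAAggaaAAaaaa

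Over the whole homeobox, the median identity was 81.7% between members of the same paralog group (69.4 to 90.6) and 60.6% between other pairs (47.8 to 91.1). Outside shared exons the members were nonetheless distinct at the length of a read. Of 741 pairs of members, 736 had no overlapping exons, and the longest run that any of these shared was 62 bases (HOXB3 and HOXD3), shorter than the 100-base reads. The other 5 pairs share annotated exon bases on the same strand: HOXC4 with HOXC6, HOXC6 with HOXC9, HOXD10 with HOXD11, and HOXB3 with HOXB4 and with HOXB6. Their counts depend on how the counting model divided shared reads. For HOXC5, 59.9% of the exon bases overlapped other annotated genes on the same strand, and for HOXA4 31.0%, so the levels of these members are uncertain.

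The tumour libraries held 20321583 to 39714721 counts, the controls 1358750, 1702195 and 4158119, and the culture 65058645. Per the labels, graft reads made up 42.52, 45.38 and 64.4% of reads in primary tumours 1 to 3, 29.44, 42.67 and 33.05% in recurrent tumours 1 to 3, and 0.33, 0.55 and 4.9% in the controls. Structural and mitochondrial RNA took 7.19 to 15.65% of counts in the tumours, highest in primary replicate 2, and 92.64, 89.91 and 32.72% in the controls. The RNA integrity number (RIN) was 7.8 to 8.9 in the tumours, lowest in primary replicate 2. It was 8.7, 6.1 and 8.9 in control replicates 1 to 3 and 9.2 in the culture. All 9 glioma and astroglia markers (GFAP, VIM, NES, SOX2, FABP7, CD44, CHI3L1, S100B and EGFR) had at least 10 counts in every tumour. They summed to 8653 to 9323 CPM in primary tumours, 7753 to 8150 in recurrent tumours and 9323 in the culture. That minimum is low beside the depth of these libraries and does not test the label of a tumour. Of 9 microglia and macrophage markers, AIF1, C1QA, C1QB, CX3CR1, P2RY12 and PTPRC had no count in any tumour, while CD68 stood at 19.4 to 25.7 CPM and CSF1R at 1.38 to 3.71 CPM in the tumours, with 20.9 and 0.704 CPM in the culture. Of 8 neuron markers, 4 had at least 10 counts in every tumour. Their list summed to 860.0 to 1410 CPM in primary tumours, 775.7 to 1056 in recurrent tumours and 510.7 in the culture. Of 6 oligodendrocyte markers 4 did, with sums of 169.0 to 176.9, 120.6 to 208.1 and 128.7 CPM. Of 9 endothelium and blood markers 1 did. Whether host reads entered these counts was not tested.

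HOX genes of all 4 clusters were expressed in the tumours, and HOXB carried most of the signal. Levels are given as CPM, counts per 1000000 of a library total scaled by edgeR's TMM method over the 6 tumours and the culture. To compare genes, CPM is divided by the length of the gene's merged exons in kilobases (CPM per kb). The 39 members summed to 392.3, 340.4 and 366.3 CPM in primary tumours 1 to 3, to 384.0, 384.2 and 337.3 CPM in recurrent tumours 1 to 3, and to 437.9 CPM in the culture. The primary and recurrent ranges overlapped, and the culture lay above all 6 tumours. Without HOXB3 the tumours summed to 228.1 ± 12.25 CPM (SD, n = 6) and the culture to 235.3 CPM, inside the tumours' range of 207.5 to 240.3 CPM. In these tissue samples fewer cells with a gene on and less RNA per cell cannot be told apart.

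Of the 39 members, 24 had at least 10 counts in every tumour and are called expressed here: 7 of 11 in HOXA, 7 of 10 in HOXB, 5 of 9 in HOXC and 5 of 9 in HOXD. The count was 27 at a minimum of 5 counts and 21 at 30. HOXC12 and HOXD13 had no count in any of the 10 libraries, which allows up to 3 counts, or 0.0743 to 0.152 CPM in a tumour. HOXB1 had 2 counts in primary replicate 3, 3 in recurrent replicate 1 and 0 in the other tumours and the culture. HOXD1 had 5 counts in primary replicate 1 and 0 to 2 in the other tumours, so that these members at the 3′ ends of HOXB and HOXD were at or under the floor in most tumours.

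**Figure D1:**
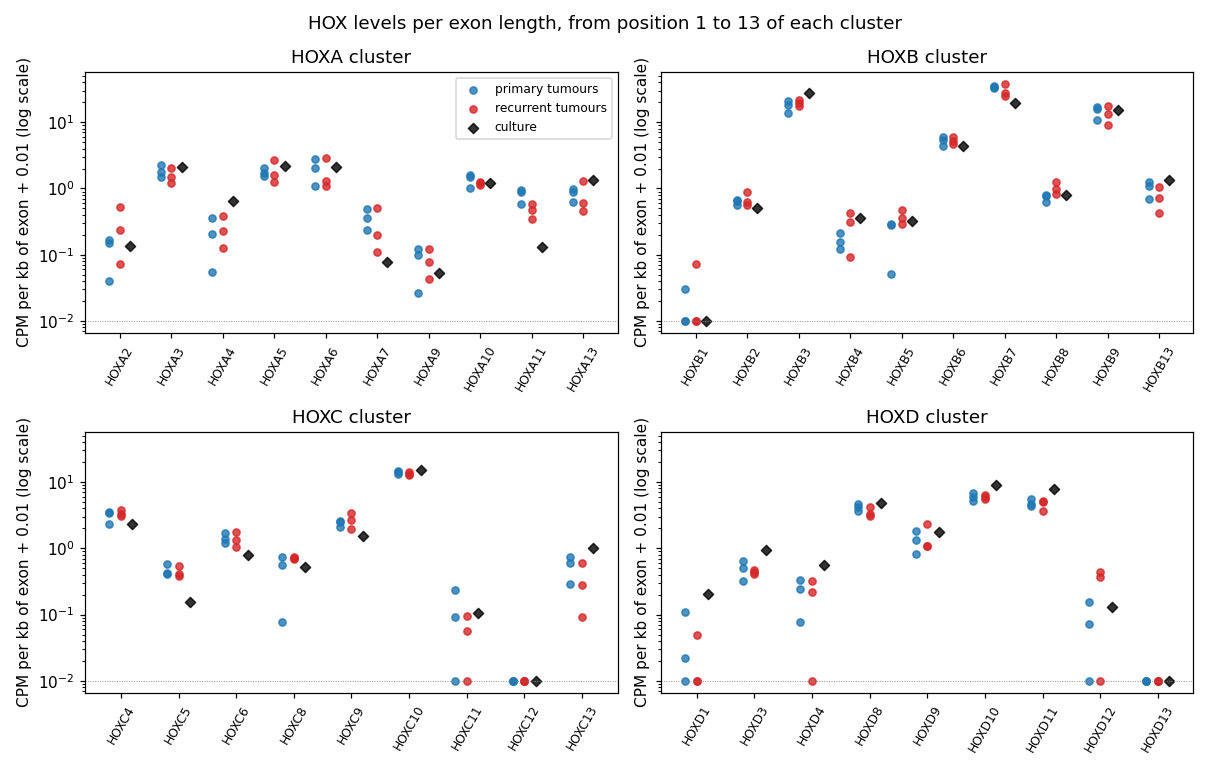
Level of 38 HOX members per kb of merged exons (CPM per kb + 0.01, log axis) in each primary tumour, recurrent tumour and the culture, with 1 panel per cluster and members in order of position. HOXB7, HOXB3, HOXB9 and HOXC10 are the highest, weak and strong members alternate within HOXB and HOXC, and HOXC12 and HOXD13 lie on the dotted line of no count.

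HOXB7, a central member of its cluster (ENSG00000260027.5, chromosome 17, 48607227 to 48633572, minus strand), had the highest level per length in the tumours. It stood at 51.3, 50.2 and 52.8 CPM in primary tumours 1 to 3, at 58.1, 38.0 and 41.7 CPM in recurrent tumours 1 to 3, and at 30.2 CPM in the culture, or 31.8 ± 4.88 CPM per kb over the tumours (SD, n = 6). Recurrent replicate 1 was the highest and recurrent replicates 2 and 3 the lowest, so the groups overlapped, and the culture lay below all of them. HOXB3, an anterior member known for its role in the hindbrain, had the most reads of any member. Its levels were 156.8, 104.1 and 137.5 CPM in primary tumours 1 to 3, 163.4, 144.0 and 129.8 CPM in recurrent tumours 1 to 3, and 202.6 CPM in the culture. Primary replicate 2 was the lowest tumour and the culture the highest library. Its exons are long, so per length it came after HOXB7, at 18.7 ± 2.84 CPM per kb (SD, n = 6), and with the longest coding transcript as the length the 2 were at 33.1 and 35.5 CPM per kb.

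HOXB9, the posterior neighbour of HOXB8, was the other strong member of HOXB at 13.9 ± 3.39 CPM per kb (SD, n = 6). HOXB6 followed at 5.28 ± 0.716 CPM per kb (SD, n = 6). High and low members alternated along HOXB. HOXB4 and HOXB5, which lie between HOXB3 and HOXB6, stood at 0.21 and 0.28 CPM per kb, and HOXB8, between HOXB7 and HOXB9, at 0.869 CPM per kb. HOXB13, set apart from the rest of the cluster, stood at 0.863 and HOXB2 at 0.65 CPM per kb.

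HOXC10, a posterior member (ENSG00000180818.5, chromosome 12, 53985065 to 53990279, plus strand), dominated HOXC and was the steadiest of all expressed members. It stood at 32.9, 30.8 and 33.7 CPM in primary tumours 1 to 3, at 30.6, 33.1 and 29.6 CPM in recurrent tumours 1 to 3, and at 35.5 CPM in the culture. Per length this was 13.6 ± 0.709 CPM per kb (SD, n = 6), less than 1 SD from HOXB9. The groups overlapped, and the culture lay just above all tumours. HOXC4 followed at 3.22 CPM per kb, HOXC9 at 2.52 and HOXC6 at 1.41, while HOXC11, next to HOXC10, stood at 0.073 CPM per kb and had no count in primary replicate 3 and recurrent replicate 2. HOXC8 had 3 counts in primary replicate 2 and 26 to 42 in the other tumours.

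HOXD10 (ENSG00000128710.6, chromosome 2, 176108790 to 176119942, plus strand) had the highest level per length in HOXD. It stood at 18.5, 16.2 and 14.1 CPM in primary tumours 1 to 3, at 17.3, 15.02 and 16.2 CPM in recurrent tumours 1 to 3, and at 24.5 CPM in the culture, which was above every tumour. Per length the tumours averaged 6.03 ± 0.577 CPM per kb (SD, n = 6). HOXD11 stood at 4.68, HOXD8 at 3.83, HOXD9 at 1.398 and HOXD3 at 0.454 CPM per kb, so the expressed part of the cluster ran from HOXD8 to HOXD11 with a weak HOXD3. HOXD12, the next member beyond HOXD11, had 0 to 15 counts per tumour.

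HOXA was expressed broadly at low levels. Its highest member was HOXA6 (ENSG00000106006.6, chromosome 7, 27145396 to 27150603, minus strand), which stood at 2.60, 1.41 and 3.57 CPM in primary tumours 1 to 3, at 1.63, 3.69 and 1.38 CPM in recurrent tumours 1 to 3, and at 2.68 CPM in the culture. Each group held a tumour above the culture, and the groups overlapped. At 1.85 ± 0.831 CPM per kb (SD, n = 6), HOXA6 differed by less than its SD from HOXA5 (1.80), HOXA3 (1.71) and HOXA10 (1.26). HOXA13 and HOXA11 stood at 0.80 and 0.623 CPM per kb, and the remaining 4 members of the cluster at 0.31 or below. HOXA9, a member with a well-known role in leukaemia, had 2 to 9 counts per tumour.

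Ranked per length, HOXB7, HOXB3, HOXB9 and HOXC10 led in the tumours, and HOXC10 and HOXD10, which came next, were separated by far more than their SDs. From HOXD10 down through HOXB6, HOXD11, HOXD8, HOXC4, HOXC9 and HOXA6, each member was closer to the next than the sum of their SDs. In the culture the leading 4 were HOXB3 (27.2 CPM per kb), HOXB7 (19.8), HOXB9 (15.4) and HOXC10 (15.3). HOXB made up 59.6% of the summed CPM per kb in the tumours (55.8 to 62.5 over the 6), HOXC 18.3%, HOXD 13.8% and HOXA 8.33%. In the culture the shares were 54.6% for HOXB, 16.9% for HOXC, 19.9% for HOXD and 8.66% for HOXA. By position, members 1 to 3 took 18.9% of the tumours' summed CPM per kb, members 4 to 8 took 42.9% and members 9 to 13 took 38.2%.

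Among the 24 expressed members, the coefficient of variation of CPM over the 6 tumours was lowest for HOXC10 (5.2%), with a median of 19.9%, and the median over all 15928 genes tested below was also 19.9%. The 10 expressed members with a mean count of 200 or more had a median of 15.1%, beside 15.3% for all tested genes with such counts. The other 14 had one of 26.3% beside 41.5%, but the sets are not alike. The genes beside them had only to pass the test's count filter, not to have 10 counts in every tumour. The tested members that missed that minimum, HOXA4, HOXA7, HOXB4, HOXB5, HOXC8 and HOXC13, had 44.8 to 61.0%. The lower median of the 14 members is therefore not read as steadiness. The whole profile was much alike in all tumours: across the 39 members, log2(CPM + 0.1) values of any 2 primary tumours correlated at 0.941 to 0.956, those of any 2 recurrent tumours at 0.932 to 0.952, and those of a primary and a recurrent tumour at 0.92 to 0.974. The culture correlated with the tumours at 0.921 to 0.95. These coefficients are descriptions across genes, which are not independent, and the points share the large level differences between members.

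The study's main comparison was recurrent against primary tumours. No HOX member was called higher or lower in the recurrent tumours. edgeR's quasi-likelihood test (two-sided, 3 against 3) with Benjamini-Hochberg adjustment over 15928 genes tested 30 of the 39 members, and 0 passed an adjusted p of 0.05. The background was 0.00628% of genes called in either direction, a single gene outside the clusters, so the absence of calls was shared with nearly all genes. At an unadjusted p under 0.05, 1 of the 30 members was higher and 0 were lower, where 4.59% and 3.79% of all tested genes were, 8.38% in either direction. DESeq2 and limma-voom also called 0 members, while DESeq2 called 118 genes in all and limma-voom called 0. The 9 members not tested for low counts were HOXA2, HOXA9, HOXB1, HOXC11, HOXC12, HOXD1, HOXD4, HOXD12 and HOXD13.

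Of the 30 tested members, 13 had a fold change above 0 and 17 below, and their median log2 fold change was -0.056 beside -0.007 for all tested genes. Members' adjusted p ran from 0.5717 to 0.9909 with edgeR and Benjamini-Hochberg adjustment. For 14 members the 95% interval of the log2 fold change lay inside 2-fold in both directions: HOXA3, HOXA5, HOXA10, HOXB3, HOXB6, HOXB7, HOXB9, HOXC4, HOXC6, HOXC9, HOXC10, HOXD8, HOXD10 and HOXD11. The intervals were narrowest for the abundant members. The log2 fold change was -0.06 for HOXC10 (95% interval -0.36 to 0.24), -0.01 for HOXD10 (-0.38 to 0.37), -0.17 for HOXB7 (-0.54 to 0.21) and 0.13 for HOXB3 (-0.25 to 0.52). For the other 16 members the interval reached 2-fold or beyond, so a change of that size was not detectable in this design.

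**Figure D2:**
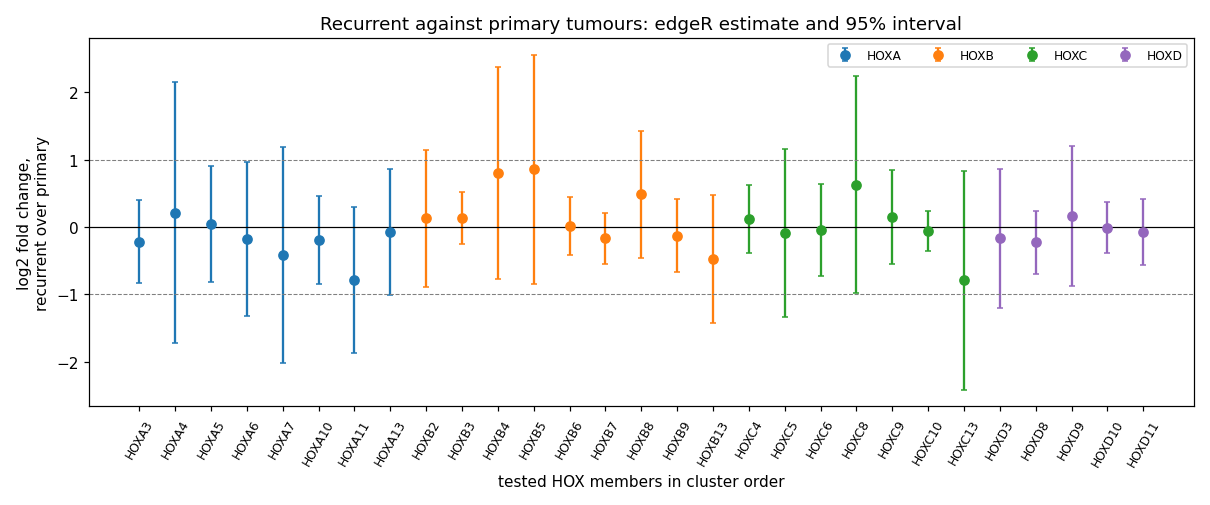
edgeR log2 fold change of recurrent over primary tumours for 29 of the tested HOX members in cluster order, with 95% intervals as bars and dashed lines at 2-fold. The interval of every member drawn includes 0, and the narrowest is that of HOXC10 (-0.36 to 0.24).

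The groups did not overlap for 2 of 30 tested members, both higher in recurrent tumours, where 7.94% of tested genes did so in that direction, 7.42% in the other and 15.4% in either. One of them was HOXB8. It stood at 1.28, 1.62 and 1.56 CPM in primary tumours 1 to 3, at 1.68, 2.54 and 2.02 CPM in recurrent tumours 1 to 3, and at 1.61 CPM in the culture. Its log2 fold change was 0.48 (SE 0.43).

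The other members with the smallest p overlapped between the groups. HOXA11 stood at 1.32, 2.13 and 2.01 CPM in primary tumours 1 to 3 and at 1.32, 1.08 and 0.768 CPM in recurrent tumours 1 to 3, with a log2 fold change of -0.79 (SE 0.49). Primary replicate 1 and recurrent replicate 1 were at almost the same level, and the other recurrent tumours lay below all primary ones. HOXB4 stood at 0.543, 0.767 and 0.421 CPM in primary tumours 1 to 3 and at 1.58, 0.307 and 1.13 CPM in recurrent tumours 1 to 3 (log2 fold change 0.80, SE 0.71). Recurrent replicate 2 was below every primary tumour, against the direction of the mean.

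HOXB5, beside HOXB4 in the cluster, stood at 0.582, 0.0852 and 0.545 CPM in primary tumours 1 to 3 and at 0.712, 0.961 and 0.566 CPM in recurrent tumours 1 to 3 (log2 fold change 0.86, SE 0.76). Its value in primary replicate 2 was 2 counts, and recurrent replicate 3 lay below primary replicate 1. HOXB13 stood at 2.37, 3.75 and 4.33 CPM in primary tumours 1 to 3 and at 2.49, 1.46 and 3.56 CPM in recurrent tumours 1 to 3 (log2 fold change -0.48, SE 0.43). Each group held tumours above and below 3 CPM.

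The culture showed what the line expressed outside the brain. With 1 culture library no test was possible, and a member was counted as different when the mean tumour CPM and the culture CPM, each plus 0.1, differed by more than 2-fold and the culture lay outside the range of the 6 tumours. Of 32 members with a mean count of at least 10, 3 were higher in the tumours (HOXA11, HOXA7 and HOXC5), where 5.93% of 16773 genes were, and 4 were lower (HOXA4, HOXD4, HOXC13 and HOXD3), where 9.28% were. All 7 were members with low counts in the tumours, on average 41.5 or fewer. The strongest members, HOXB7, HOXB3, HOXB9, HOXC10 and HOXD10, all stayed inside 2-fold.

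HOXA11, a posterior member used in limb and uterus development (ENSG00000005073.6, chromosome 7, 27181510 to 27185223, minus strand), showed the largest ratio. It had 34, 50 and 81 counts in primary tumours 1 to 3 and 26, 28 and 19 in recurrent tumours 1 to 3, and 19 in the much deeper culture. The tumours thus stood at 0.768 to 2.13 CPM and the culture at 0.279 CPM, a 5.16-fold ratio of the mean to the culture. This and the ratios below are of CPM without the 0.1, with which the log2 ratio of HOXA11 was 2.02 and that of HOXA7 1.69. Its antisense partner HOXA11-AS, with 1 to 23 counts in the tumours and 34 in the culture, was not counted as different.

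HOXA7, a central member, stood at 0.543, 0.852 and 1.14 CPM in primary tumours 1 to 3, at 1.22, 0.461 and 0.243 CPM in recurrent tumours 1 to 3 and at 0.161 CPM in the culture, a 4.6-fold ratio. Recurrent replicate 3, with 6 counts, was close to the culture. HOXC5 stood at 0.737, 0.724 and 1.04 CPM in primary tumours 1 to 3, at 0.661, 0.73 and 0.97 CPM in recurrent tumours 1 to 3 and at 0.264 CPM in the culture, a 3.07-fold ratio. All 6 tumours were well above the culture, although most of the exon bases of HOXC5 are shared with other genes.

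HOXA4 stood at 0.0776, 0.341 and 0.619 CPM in primary tumours 1 to 3, at 0.661, 0.384 and 0.202 CPM in recurrent tumours 1 to 3 and at 1.1 CPM in the culture, 2.89-fold higher there. HOXD4, its paralog, stood at 0.466, 0.341 and 0.0991 CPM in primary tumours 1 to 3, at 0.305, 0.461 and 0 CPM in recurrent tumours 1 to 3 and at 0.792 CPM in the culture, 2.84-fold higher there. In both, the culture exceeded each tumour, from 2 to 25 counts for HOXA4 and 0 to 12 for HOXD4.

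HOXC13 stood at 1.79, 0.681 and 1.44 CPM in primary tumours 1 to 3, at 1.42, 0.653 and 0.202 CPM in recurrent tumours 1 to 3 and at 2.46 CPM in the culture, 2.39-fold higher there. HOXD3 was 2.08-fold higher in the culture, at 3.34 CPM beside 1.12 to 2.21 CPM in the tumours. Without recurrent replicate 3 the count of members lower in the tumours went from 4 to 2. HOXD1 was not assessed because its mean count was under 10, and it had 26 counts in the culture and 0 to 5 in the tumours.

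Most members differed less. The culture exceeded all 6 tumours for 11 of 32 members, where it did for 27.8% of all assessed genes, and lay below all of them for 8 of 32, where it did for 23.6%. In HOXD the culture was above every tumour for 5 of 6 assessed members, and the HOXD sum was 36.46 to 45.14 CPM in the tumours and 61.97 CPM in the culture. HOXD11, for example, stood at 7.56 to 11.7 CPM in the tumours and 16.8 CPM in the culture. In HOXC the culture was below every tumour for 4 of 7 assessed members (HOXC4, HOXC5, HOXC6 and HOXC9), and above for HOXC10 and HOXC13. Summed over the clusters, members 4 to 8 were at 86.48 to 107.3 CPM in the tumours and 76.58 CPM in the culture, while members 1 to 3 were at 116.7 to 175.9 and 219.9 CPM. These sums are carried largely by HOXB7 and HOXB3. For members 4 to 8 the culture was at 0.689 times the mean tumour sum in HOXB and 0.65 times in HOXC. In HOXA and HOXD it was at 1.16 and 1.31 times. The HOXC value, 10.2 CPM, lay below the tumours' range of 12.2 to 17.8 CPM. The HOXA value, 7.66 CPM, lay inside the tumours' range of 3.92 to 9.11 CPM. The median log2 ratio of tumours over culture was -0.151 for the 32 members and 0.00 for all assessed genes, and by cluster it was -0.051 for HOXA, -0.114 for HOXB, 0.49 for HOXC and -0.675 for HOXD.

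**Figure D3:**
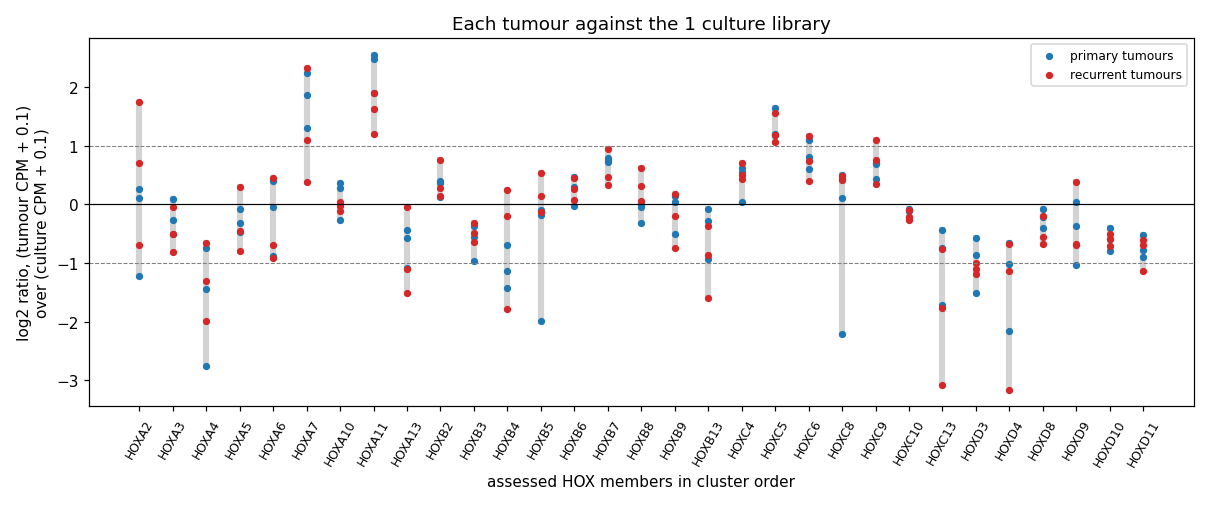
log2 ratio of each tumour to the culture, (CPM + 0.1) over (CPM + 0.1), for 31 of the assessed HOX members in cluster order, with 1 point per tumour, a grey bar over their range and dashed lines at 2-fold. HOXA7, HOXA11 and HOXC5 lie above 0 in all 6 tumours and HOXA4, HOXC13, HOXD3 and HOXD4 below 0 in all 6.

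The tumour-free controls showed how many human-assigned HOX reads a rat brain without a tumour gave. The 39 members had 12, 44 and 1103 counts in control replicates 1 to 3. With counts outside structural and mitochondrial RNA as the total, the mean tumour profile would give 41, 70.5 and 1150 counts at these depths. Control replicate 3 was thus at 0.96 of the tumour level per such count, and control replicates 1 and 2 were at 0.292 and 0.624. Control replicate 3 also had the highest graft percentage of the 3 and more counts of glioma markers, with 561 for GFAP and 10802 for VIM beside 6 and 38 in control replicate 1. Where its graft reads came from was not tested.

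Within control replicate 3, 26 members had a count. HOXB3 led with 493, where the tumour profile gives 436, followed by HOXB7 with 124 (152), HOXC10 with 118 (99.3), HOXB9 with 53 (112), HOXD8 with 43 (31.5), HOXB6 with 42 (43.0) and HOXD11 with 38 (30.9). HOXB3 and HOXB7 led there as in the tumours, while HOXB9 came after HOXC10 and below its value at the tumour share. The HOXC and HOXD members followed, with 33 counts each for HOXC4 and HOXD10, 16 for HOXC9, 12 for HOXC6, 9 for HOXD4, 8 for HOXC8, 5 for HOXD9, 2 for HOXC11 and 1 for HOXD3. HOXD4 stood out, since the tumour profile gives 0.873. HOXA members had 18 (HOXA13), 13 (HOXA3), 13 (HOXA10), 4 (HOXA5), 3 (HOXA6) and 1 (HOXA4), and the remaining HOXB members 11 (HOXB13), 4 (HOXB5) and 4 (HOXB8).

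Control replicate 2 had counts for 9 members: 24 for HOXB3, 6 for HOXD8, 3 each for HOXB7, HOXB9 and HOXC10, 2 for HOXA3, and 1 each for HOXB5, HOXB6 and HOXD10. Control replicate 1, the failed graft, had counts for 6: 4 for HOXC6, 3 for HOXB3, 2 for HOXA6 and 1 each for HOXB9, HOXB13 and HOXD10. In control replicate 1, HOXB7 and HOXC10 had no count where the tumour profile gives 5.43 and 3.55. HOXB3 took 25.0, 54.5 and 44.7% of HOX counts in control replicates 1 to 3 and 30.6 to 42.5% in the tumours. At 12 and 44 counts these shares carry large counting error.

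**Figure D4:**
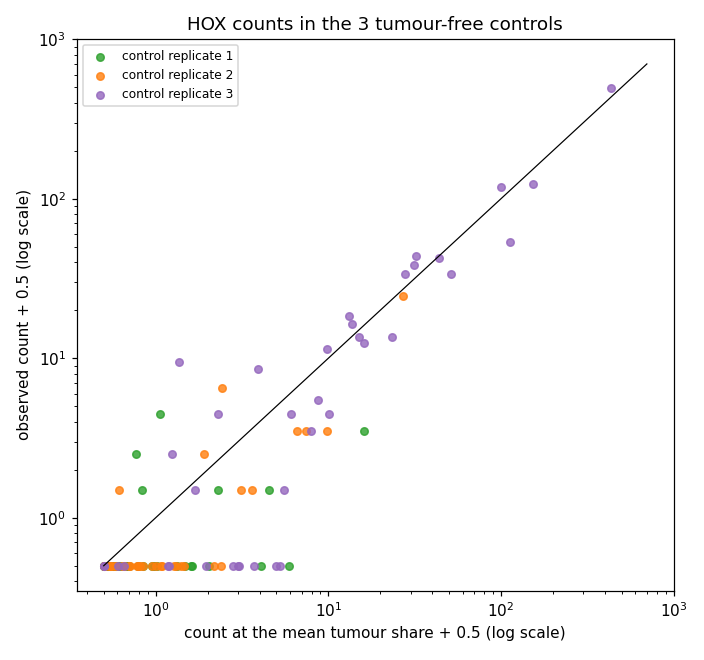
Observed counts of 38 HOX members in each tumour-free control against the count its mean share in the tumours gives at that depth, both plus 0.5 on log axes, with a line at equality. HOXB3 in control replicate 3 (493 against 436) lies near the line and HOXB9 (53 against 112) below it, while members in control replicates 1 and 2 lie at 24 counts or fewer.

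edgeR's quasi-likelihood test of the 6 tumours against the 3 controls, with Benjamini-Hochberg adjustment, called 0 of 30 tested members, where 1.17% of 16389 genes were higher and 4.86% lower in tumours, 6.02% in all. At an unadjusted p under 0.05, 7 members were higher and 1 (HOXD4) was lower, where 11.1% and 9.52% of genes were. The lowest adjusted p was that of HOXB2, 0.0643, with 28 to 63 counts in each tumour and 0 in each control. With the library total in place of TMM, HOXB2 alone was called higher, and the median log2 fold change of all genes moved from 0.215 to 1.74, that of the members from 0.526 to 1.82. Since control replicate 3 resembled the tumours in its HOX counts, the comparison was also made without it: 0 of 33 members were called, and the members' median became 6.91 beside 1.17 for all genes. That median rests largely on members with no count in control replicates 1 and 2 and sets no bound.

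The genes that act with or on HOX genes were examined in the recurrent against primary fit. None of their members was called. Of all 15928 tested genes, 7812 had a log2 fold change above 0 and 8116 below. Of 9 TALE cofactors tested, 6 were above 0 and 3 below, with a median log2 fold change of 0.22 beside -0.007 for all genes. MEIS2 stood at 33.4, 23.3 and 27.2 CPM in primary tumours 1 to 3 and at 36.1, 43.3 and 39.0 CPM in recurrent tumours 1 to 3 (log2 fold change 0.50, SE 0.17, edgeR adjusted p = 0.521), with groups close but not overlapping. MEIS2 also had 426, 221 and 288 counts in control replicates 1 to 3, more than all HOX members together in the first 2, and 548 to 1128 in the tumours. PKNOX2 had 180, 148 and 154 counts in the controls, 9 to 68 in the tumours and 2 in the culture (log2 fold change 1.5, SE 0.67). The part of these control reads in the tumour values was not tested. MEIS3 had a log2 fold change of -0.30 (SE 0.21).

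Of 27 Polycomb genes tested, 13 were above 0 and 14 below (median log2 fold change -0.003), led by the PRC2 subunits SUZ12 (0.43, SE 0.16) and AEBP2 (0.43, SE 0.18) and by MTF2 (-0.26, SE 0.14). All 27 were expressed in every tumour. Of 19 Trithorax genes and other HOX activators, 16 were above 0 and 3 below (median 0.22), where 7812 of 15928 tested genes were above 0. The list summed to 1185 to 1750 CPM in primary tumours and 1737 to 1846 CPM in recurrent tumours, ranges that overlapped. KMT2A, the methyltransferase that maintains HOX expression, stood at 119.5, 76.9 and 130.4 CPM in primary tumours 1 to 3 and at 156.0, 159.5 and 144.4 CPM in recurrent tumours 1 to 3 (log2 fold change 0.49, SE 0.19, edgeR adjusted p = 0.572). Primary replicate 2 was well below the other tumours. That library also had the lowest RIN of the tumours, 7.8, and whether this bears on its value was not tested. DOT1L, a histone methyltransferase, had a log2 fold change of 0.50 (SE 0.22) and DPY30, a shared subunit of the KMT2 complexes, of -0.47 (SE 0.17).

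Of 13 genes of the retinoic acid pathway tested, 8 were above 0 and 5 below (median 0.12). ALDH1A3, which makes retinoic acid, stood at 108.2, 109.4 and 75.9 CPM in primary tumours 1 to 3 and at 91.0, 473.5 and 185.9 CPM in recurrent tumours 1 to 3 (log2 fold change 1.36, SE 0.47, edgeR adjusted p = 0.532). Recurrent replicate 2 was the highest, and recurrent replicate 1 lay within the primary range. CYP26B1, which degrades retinoic acid, had a log2 fold change of 1.31 (SE 0.82) and CRABP2, its cellular carrier, of -0.62 (SE 0.41). Among 6 ParaHox genes, the relatives of the HOX genes outside the clusters, GSX2 alone had enough counts to test.

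GSX2, a forebrain factor, stood at 0.466, 0.639 and 0.545 CPM in primary tumours 1 to 3, at 0.762, 2.54 and 4.04 CPM in recurrent tumours 1 to 3 and at 1.31 CPM in the culture. The groups did not overlap, and the log2 fold change was 2.15 (SE 0.64, edgeR adjusted p = 0.517). Of 24 noncoding genes of the clusters, 6 were tested, 2 above 0 and 4 below (median -0.39). HOXD-AS2 led them at -0.83 (SE 0.49), followed by HOTAIRM1 (-0.48, SE 0.51) and HOXC-AS2 (0.65, SE 0.75), and 9 of the 24, among them the microRNA genes MIR10A, MIR10B and MIR196A1, had no count in any tumour. Of 10 genes tested at the cluster borders, 5 were above 0 and 5 below (median -0.021), led by CALCOCO1 beyond HOXC (-0.50, SE 0.18), CBX5 (0.38, SE 0.23) and SKAP1 (0.63, SE 0.49).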

How the data were processed

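Per the labels' protocols, total RNA was extracted without a separate DNase step and ribosome-depleted, reverse-stranded libraries were read as 100-base pairs. STAR, DESeq2, Salmon 1.10.3 and the GRCh38 build are named in the submitters' processing notes. Settings, annotation release and the xengsort read classes that entered the counts: not given in the sources used here. The authors deposited estimated counts from Salmon for each gene in 1 unscaled table. Of its 62754 gene IDs, 58261 matched GENCODE 29, which gave coordinates, exon lengths and transcripts. Estimated counts were rounded to whole numbers. Groups came from the treatment labels.

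Levels are CPM with TMM factors (edgeR 4.0.16, R 4.3.3). Recurrent and primary tumours, and tumours and controls, were compared with edgeR's quasi-likelihood F test (filterByExpr, no covariate, Benjamini-Hochberg over all tested genes, threshold 0.05). The SE is the size of the log2 fold change divided by the square root of F. DESeq2 1.42.0, limma 3.58.1 (voom), other scalings and filters, the graft percentage as covariate and each library left out were alternatives. The test was checked on simulated data. Floors of 3 counts cover counting error only, since reads carry no molecular identifiers.

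The members, the 13 gene lists (173 entries) and the rules were chosen with earlier results of these data known. Values per sample are given for the member of each cluster with the highest CPM per kb, the 6 with the smallest p in recurrent against primary tumours, the 3 with the largest culture ratio in each direction among those called, and, by counts, members present in a control. From each other list, up to 3 genes with the smallest p are named. HOXB3, HOXD3 and other members were named for their place in a cluster after their values were seen. The libraries are strand-specific, so antisense reads can be told apart. Some values and sequences that these rules select are not reported here.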

Additional observations from a re-analysis of the deposited data

How the results depend on the processing

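No paired analysis was possible because the labels give no replicate numbers and nothing ties a primary to a recurrent tumour. No HOX member was called in recurrent against primary tumours under any of the 12 alternatives, and the smallest adjusted p was 0.2569 among the named members, of whose 120 alternative values 112 kept their direction. Those that reversed, all uncalled, were HOXA6 (0.591 with the graft percentage as covariate, -0.758 to 0.155 with 1 tumour left out, at 0.067 without recurrent replicate 3), HOXB4 (-0.305) and HOXC10 (0.019) with the covariate, and HOXD10 (0.009 with limma-voom, -0.103 to 0.091 with 1 tumour left out, at 0.042 without recurrent replicate 2). The members' median log2 fold change, -0.056, was 0.032 with the covariate and ran from -0.103 to 0.03 with 1 tumour left out, so its sign is not settled. Over all genes edgeR called 1, DESeq2 118, edgeR without a count filter 411 (222 higher, 189 lower) and without recurrent replicate 1 23 (19 higher, 4 lower). The cause of these differences was not tested.

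In tumours against controls, 1 member (HOXB2) was called higher with the library total. Over all genes, 191 higher and 796 lower became 343 and 279 with the library total, 150 and 1268 with DESeq2, and 1524 and 1424 without control replicate 3. Against the culture, a 4-fold limit on the ratio with 0.1 added left 1 member higher and 0 lower in the tumours, and a 1.5-fold limit gave 6 and 8. With 1 tumour left out the count higher stayed at 3 and the count lower ran from 2 (without recurrent replicate 3) to 4. The controls are shallow, the culture is a single library, and low counts left 16 members with intervals that reach 2-fold.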

Other observations

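HOXD3 and the antisense gene HOXD-AS2, whose exons overlap on opposite strands, were counted as different from the culture in opposite directions. HOXD3, at 32 to 52 counts in the tumours and 228 in the culture, had a log2 ratio of tumours over culture of -1.01. HOXD-AS2, at 28 to 106 counts in the tumours and 67 in the culture, had a log2 ratio of 1.12. HAGLR, another antisense gene that overlaps HOXD3, went the same way as HOXD3. It had 98 to 224 counts in the tumours and 483 in the culture, with a log2 ratio of -0.386. Of 9 pairs of a member and an overlapping antisense gene examined, 4, HOXD3 with HOXD-AS2 among them, had ratios in opposite directions. HOXD3 and HOXD-AS2 were chosen after their values were seen, and with 1 culture library no ratio was tested.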
